A study of Arabidopsis thaliana with 6 samples.

Results

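IR71 is a long inverted repeat on chromosome 3 of Arabidopsis thaliana, and its read coverage was followed base by base along the hairpin that its transcript can form. All 7000 positions that the deposited coverage gives for IR71 (1963599 to 1970598) were taken, of 15862 positions over all loci, and IR71 is 1 of 10 loci. The coverage came from RNA immunoprecipitation followed by sequencing as single-end reads of 50 nt, in plants of ecotype Columbia. The lines DCL4-6:FHA and DCL4-8:FHA carry tagged missense forms of DCL4, expressed from the DCL4 promoter in the homozygous dcl4-2 mutant background. Untagged wild type Col-0 (WT) was the remaining line; it lacks the tag and also has its own DCL4 in place of a missense form. Each line was sampled as soil-grown seedlings and as flowers, with 1 library per line and tissue, so no difference below has a replicate check and no test or p-value is given. The labels do not say whether a tagged line is a single transformation event or how many plants were pooled.

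Dicer-like enzymes cut double-stranded RNA into short duplexes. DCL4 is the Arabidopsis Dicer-like enzyme best known for processing long double-stranded precursors, among them transcripts of inverted repeats, whose arms pair with each other within a single RNA molecule around an unpaired loop. Such a hairpin needs no copying by an RNA-dependent RNA polymerase to become double-stranded. The coverage asks which stretches of the IR71 hairpin were present among the RNA recovered with each tagged form of DCL4.

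Aligned with itself, the TAIR10.1 RefSeq sequence of the locus splits into a left flank of 124 nt, a left arm of 3245 nt (chr3:1963723-1966967), a loop of 237 nt, a right arm of 3246 nt (chr3:1967205-1970450) and a right flank of 148 nt. The arms share 3212 of 3249 aligned columns (98.9%), with 30 substitutions, 3 bases that the left arm alone has and 4 that the right arm alone has. The longest stretches without any difference run over 379, 316 and 275 nt. GC content was 31.9% in the left arm, 31.6% in the right arm and 38.4% in the loop. The whole loop and the arm bases on both sides of it lie in the single exon of AT3G00220 (plus strand, 1966546 to 1967625), annotated only as a miscellaneous RNA. On the minus strand the long noncoding RNA gene AT3G01835 (1966225 to 1966856) overlaps the left arm, and AT3G01845 (1967314 to 1968086), of the same kind, overlaps the right arm. The outer right arm holds the protein-coding gene AT3G06435 (minus strand, 1968288 to 1970946) and the start of AT3G06436 (plus strand, 1970340 to 1970996), whereas the left arm from its outer end to the bounds of AT3G01835 carries no annotated gene. The values carry no strand, so reads of overlapping genes on opposite strands cannot be told apart.

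The loop is shown because coverage became sparse within it and, in DCL4-6:FHA flowers, stopped. It is the plus strand at chr3:1966968-1967204, and the capitals mark the bases that any read covered in DCL4-6:FHA flowers.
IR71 loop: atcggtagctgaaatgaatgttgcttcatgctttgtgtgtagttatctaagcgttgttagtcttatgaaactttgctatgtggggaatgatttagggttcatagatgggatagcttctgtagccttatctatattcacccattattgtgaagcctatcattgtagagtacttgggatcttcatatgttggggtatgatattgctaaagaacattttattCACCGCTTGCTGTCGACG

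Reads can be assigned to an arm only where the arms differ, and the following pairs are places where they did so unequally. Each right-arm sequence is the minus strand, so that it reads in the same direction as its left-arm partner, and capitals mark the differing bases. The first pair is the last part of each arm before the loop, on the plus strand at chr3:1966918-1966967 and on the minus strand at chr3:1967205-1967254.
Loop side, left arm: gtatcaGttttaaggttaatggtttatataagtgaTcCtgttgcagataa
Loop side, right arm: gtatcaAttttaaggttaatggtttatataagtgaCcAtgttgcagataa

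The second pair is where a sharp rise of depth was shared by all 4 tagged libraries, at chr3:1966783-1966832 on the plus strand and at chr3:1967340-1967389 on the minus strand.
Read stack, left arm: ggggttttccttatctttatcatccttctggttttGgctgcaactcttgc
Read stack, right arm: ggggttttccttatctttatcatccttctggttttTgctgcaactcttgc

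The third pair surrounds a base present on the right arm alone, at chr3:1966205-1966254 on the plus strand and at chr3:1967918-1967968 on the minus strand. It was picked after the coverage had been seen.
Extra base, left arm: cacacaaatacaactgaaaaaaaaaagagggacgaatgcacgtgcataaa
Extra base, right arm: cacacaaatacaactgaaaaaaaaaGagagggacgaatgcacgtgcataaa

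Depth set how finely the hairpin could be read. Summed coverage divided by the read length gave 1372 reads on IR71 in DCL4-6:FHA flowers, 6457 in DCL4-8:FHA flowers, 2695 in DCL4-6:FHA seedlings and 1517 in DCL4-8:FHA seedlings. Of the 6951 stretches of 50 nt in the locus, 3932 occur at exactly 2 places in the genome, all within IR71. A read from such a stretch appears to be counted at both arms, although the sources used here do not say so. At paired arm bases covered only by such stretches, the summed difference of depth was 1.23% to 3.19% of the coverage. With the coverage divided by the number of places, the read numbers were 890, 4042, 1727 and 997 in the same order. Levels below are mean coverage scaled to library size (RPM), with reads counted this way unless they are called deposited, and brackets after a level, ratio or share give 95% intervals that cover counting error only.

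WT gave almost no coverage. The WT flower library held 3 stretches of 50 nt at a depth of 1 read, of which 1965170 to 1965219 and 1968952 to 1969001 are partners on the 2 arms and so may be a single read. The remaining stretch, 1967201 to 1967250, crossed the edge between the loop and the right arm. The WT seedling library held 0 reads on the arms, which at its depth allows up to 0.0118 RPM (3 reads). On the arms the tagged flower libraries stood 444-fold (123 to 3673) above WT with DCL4-6:FHA and 2834-fold (784 to 23396) with DCL4-8:FHA. In seedlings they were at least 62.8-fold and at least 29.0-fold higher, against a floor of 3 reads over the arms. Recovery through the tag and transcript abundance cannot be told apart in these ratios, and in such bulk samples neither can fewer cells of a type and less RNA per cell.

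The arms carried the coverage and the flanks carried next to none. Coverage of the arms was 0.431 RPM (0.403 to 0.461) in DCL4-6:FHA flowers, 2.75 RPM (2.67 to 2.84) in DCL4-8:FHA flowers, 0.739 RPM (0.704 to 0.775) in DCL4-6:FHA seedlings and 0.342 RPM (0.321 to 0.364) in DCL4-8:FHA seedlings. The highest library was DCL4-8:FHA flowers and the lowest was DCL4-8:FHA seedlings, so the order of the lines was opposite in the 2 tissues. The left flank had 0 reads in all 4 libraries, where 3 reads would be 0.0556 to 0.107 RPM. The right flank had 0 reads in both flower libraries and less than 1 read's worth of bases in both seedling libraries, 0.0137 RPM for DCL4-6:FHA and 0.0118 RPM for DCL4-8:FHA.

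**Figure D1:**
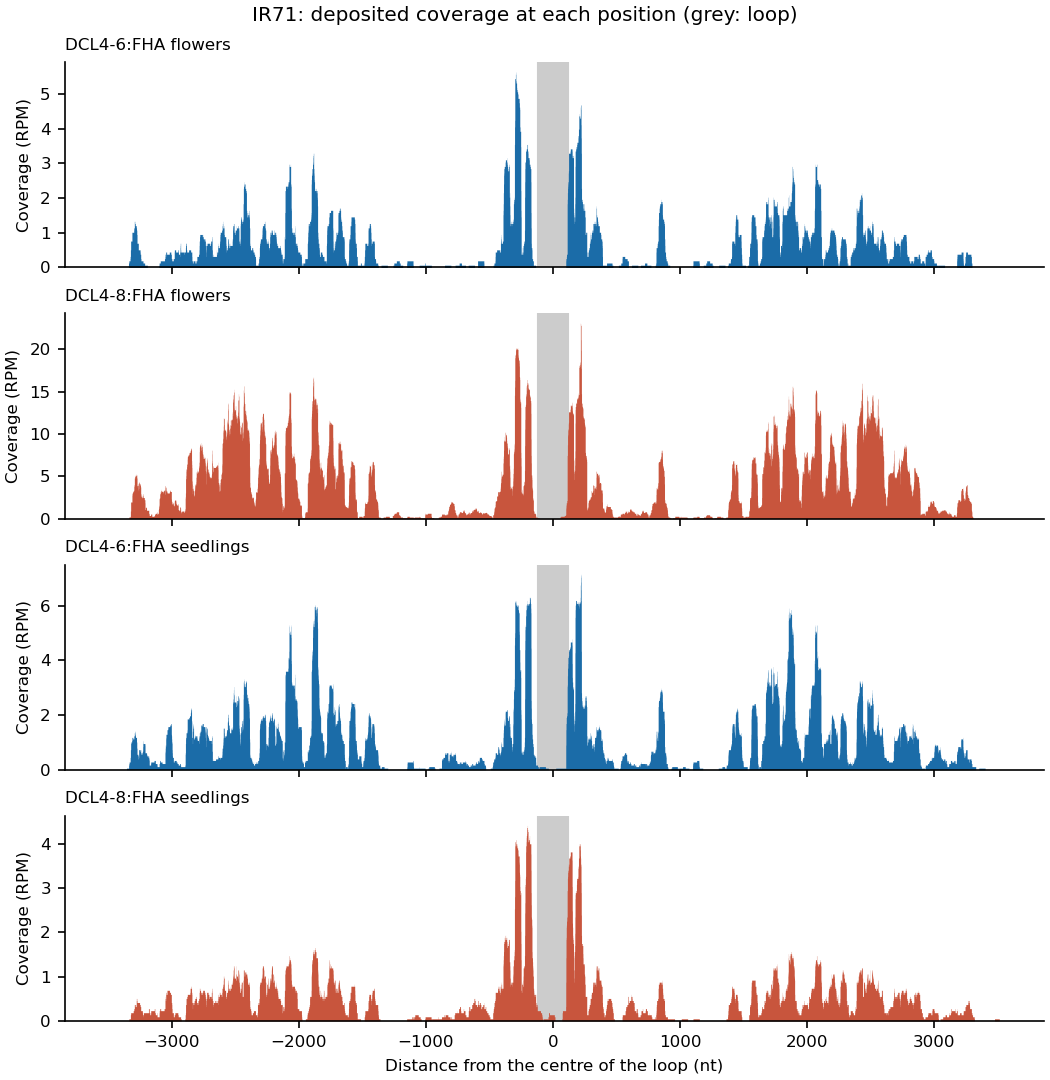
Deposited coverage (RPM, vertical axis, scaled separately in each panel) at each position of IR71, by distance from the centre of the loop (nt, horizontal axis), in the 4 tagged libraries, with the loop in grey. The highest values, 5.64, 23.1, 7.14 and 4.41 RPM from the upper to the lower panel, lay beside the loop, and each arm had a low stretch followed by a broad rise.

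Inside the loop, most coverage lay in its last 18 nt, next to the right arm. These bases, from 1967187 on, are the ones covered in DCL4-6:FHA flowers, so that they hold all of that library's loop coverage by definition. They held 85.7% of the loop's coverage in DCL4-8:FHA flowers, 78.7% in DCL4-6:FHA seedlings and 66.1% in DCL4-8:FHA seedlings. The depth at the last loop base was 39 reads in DCL4-6:FHA flowers, 119 in DCL4-8:FHA flowers, 73 in DCL4-6:FHA seedlings and 74 in DCL4-8:FHA seedlings, against 0, 1, 2 and 5 reads at the first loop base. Depth was thus far higher where the loop meets the right arm than where it meets the left arm. In both seedling libraries reads covered 179 of the 237 loop bases, whereas the numbers for flowers were 74 with DCL4-8:FHA and 18 with DCL4-6:FHA. Reads that began at 1967198 made up part of this, since depth rose there by 23 reads in DCL4-6:FHA flowers, 60 in DCL4-8:FHA flowers and 13 in DCL4-8:FHA seedlings, and at the base that lies 50 nt further on it fell by 24, 61 and 13 reads.

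The inner 137 nt of the loop (1967018 to 1967154), at least 50 nt from either edge, were nearly empty. The greatest depth there was 0 reads in DCL4-6:FHA flowers, 3 in DCL4-8:FHA flowers, 2 in DCL4-6:FHA seedlings and 4 in DCL4-8:FHA seedlings. Over the whole loop, coverage was 0.185 times that of the arms (0.0680 to 0.406) in DCL4-6:FHA flowers, 0.150 times (0.0938 to 0.227) in DCL4-8:FHA flowers, 0.323 times (0.196 to 0.497) in DCL4-6:FHA seedlings and 0.827 times (0.547 to 1.19) in DCL4-8:FHA seedlings. These intervals rest on 5.96, 22.0, 20.1 and 29.2 reads' worth of loop bases, fewer than the reads over the last loop base. With 50 nt left out at each edge of the loop and the arms, the ratios fell to 0 (up to 0.204), 0.00902 (0.000300 to 0.0662), 0.0498 (0.00685 to 0.205) and 0.198 (0.0564 to 0.533). The loop ratio thus rested mostly on reads that crossed into the right arm, and in DCL4-8:FHA seedlings the interval of the inner ratio, from 3.82 reads' worth of bases, still lay below 1. The intervals of the inner ratio overlapped in every pair of libraries, only narrowly for DCL4-8:FHA flowers and DCL4-8:FHA seedlings.

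**Figure D2:**
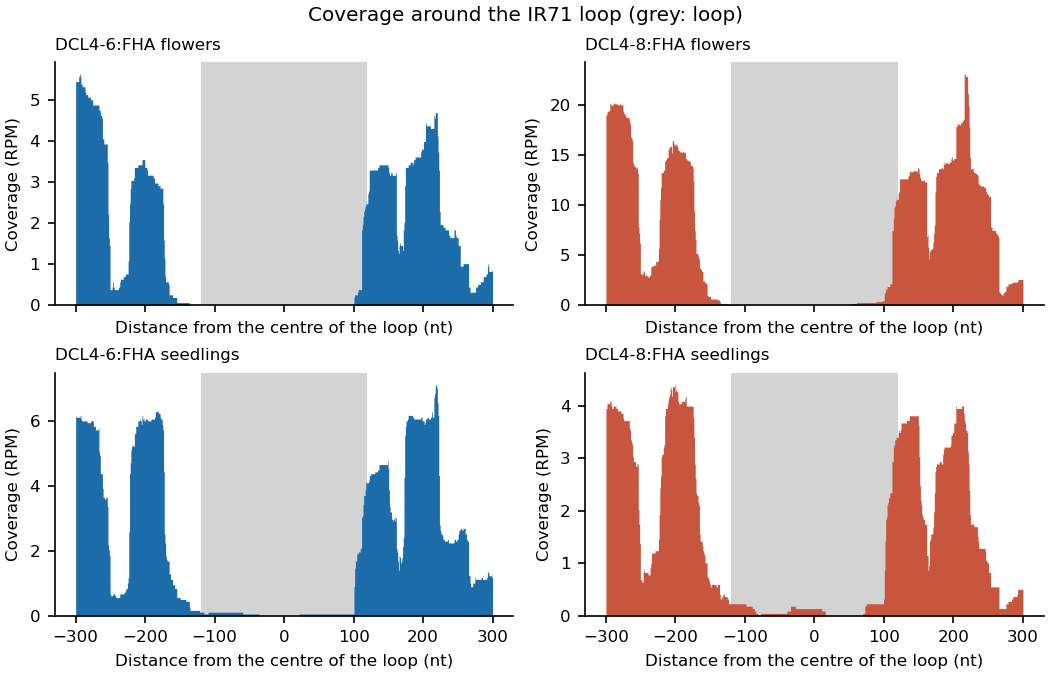
Deposited coverage (RPM, vertical axis, scaled separately in each panel) within 300 nt of the centre of the loop (nt, horizontal axis) in the 4 tagged libraries, with the loop in grey. Coverage reached into the loop at its right edge and was 0 to 4 reads deep over the inner 137 nt.

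Along the arms, coverage did not decay evenly with distance from the loop. It was high next to the loop, dropped to a trough, rose to a broad plateau and fell again towards the outer end. The arms were folded onto each other and cut into 10 segments of equal length, numbered from the loop. In segment 1 (1 to 324 nt from the loop) the level was 1.37 RPM in DCL4-6:FHA flowers, 5.87 RPM in DCL4-8:FHA flowers, 1.84 RPM in DCL4-6:FHA seedlings and 1.28 RPM in DCL4-8:FHA seedlings. This segment was the highest of the 10 in all 4 libraries.

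The trough covered segments 2 to 4, 325 to 1298 nt from the loop. In segment 2 the levels were 0.0487, 0.385, 0.133 and 0.129 RPM in the same order of libraries. In segment 3 they were 0.141, 0.815, 0.307 and 0.0974 RPM, and in segment 4 they were 0.0594, 0.334, 0.10 and 0.0365 RPM. Segment 1 was 16.5-fold (12.2 to 22.8) above the trough in DCL4-6:FHA flowers, 11.5-fold (9.91 to 13.4) in DCL4-8:FHA flowers, 10.2-fold (8.35 to 12.6) in DCL4-6:FHA seedlings and 14.6-fold (11.4 to 19.1) in DCL4-8:FHA seedlings. The trough made up 3 of 10 segments and held 5.58% to 7.69% of its coverage.

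The plateau ran over segments 5 to 8, 1299 to 2596 nt from the loop. Its right-arm copy lies in exons of AT3G06435 and its left-arm copy has no annotated gene. In DCL4-6:FHA flowers the 4 segments were at 0.490, 0.771, 0.517 and 0.505 RPM, and in DCL4-8:FHA flowers at 2.64, 4.86, 4.15 and 5.02 RPM. In DCL4-6:FHA seedlings they were at 0.856, 1.52, 0.915 and 0.788 RPM, and in DCL4-8:FHA seedlings at 0.265, 0.442, 0.424 and 0.378 RPM. The plateau had dips, such as the bin 2201 to 2250 nt from the loop, at 0.270, 2.86, 0.236 and 0.207 RPM with both arms together in the order DCL4-6:FHA flowers, DCL4-8:FHA flowers, DCL4-6:FHA seedlings and DCL4-8:FHA seedlings. The trough held a local rise in the bin 701 to 750 nt from the loop, at 1.27, 5.73, 2.34 and 0.685 RPM. Segment 6 was the highest of the plateau in 3 libraries and segment 8 in DCL4-8:FHA flowers.

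The plateau was above the trough in all 4 libraries, by 6.86-fold, 8.15-fold, 5.66-fold and 4.30-fold in the order given. It held 53%, 60.6%, 55.1% and 44.1% of the arm coverage, while segment 1 held 31.9%, 21.3%, 24.9% and 37.5%. Segment 1 exceeded the plateau by 2.41-fold (2.07 to 2.79) in DCL4-6:FHA flowers, 1.41-fold (1.30 to 1.52) in DCL4-8:FHA flowers, 1.81-fold (1.61 to 2.03) in DCL4-6:FHA seedlings and 3.40-fold (2.95 to 3.92) in DCL4-8:FHA seedlings. None of these 4 intervals overlapped another, and DCL4-8:FHA had both the lowest of these ratios, in flowers, and the highest, in seedlings.

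Towards the outer end coverage fell again. Segment 9 was at 0.244, 2.26, 0.580 and 0.236 RPM and segment 10 at 0.161, 1.19, 0.354 and 0.130 RPM. The plateau was 2.06-fold to 2.82-fold above these 2 segments. GC content was 36.4% in segment 1, between 24.6% and 39.7% in the trough, between 28.1% and 33.2% in the plateau and 38.5% in segment 10.

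**Figure D3:**
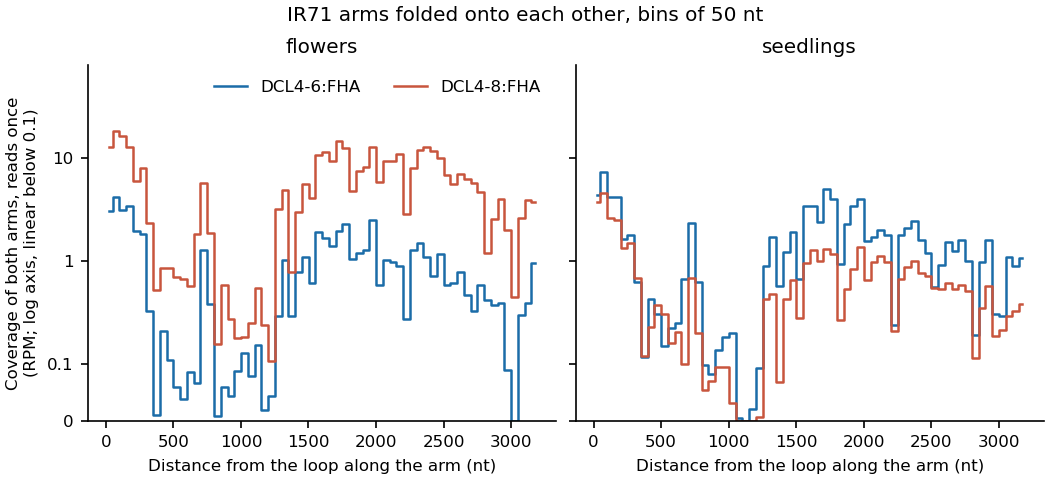
Coverage of the 2 arms folded onto each other (RPM, reads counted once, log axis that is linear below 0.1) in bins of 50 nt, by distance from the loop (nt), for flowers and seedlings, with a line for each tagged form of DCL4. All 4 libraries were high next to the loop, mostly low from 325 to 1298 nt apart from a local rise around 739 nt, and mostly high again from 1299 to 2596 nt, with dips such as that at 2201 to 2250 nt.

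With the arms cut into 3 equal parts, the ratio of the part nearest the loop to the part farthest from it does not show this shape. In flowers it was 1.59 (1.33 to 1.90) for DCL4-6:FHA but 0.755 (0.696 to 0.820) for DCL4-8:FHA. In seedlings it was 1.25 (1.10 to 1.42) for DCL4-6:FHA, and DCL4-8:FHA had the highest value, 1.85 (1.57 to 2.17). Without segment 1 (a setting added once the profile was known) it was 0.298, 0.187, 0.361 and 0.403. With that segment left out, the near part lay below the far part in all 4 libraries, and by the median over positions it did so too (0.240, 0.164, 0.316 and 0.556).

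The highest stretch of 50 nt was the same in all 4 libraries. It lay 51 to 100 nt from the loop (left arm 1966868 to 1966917, right arm 1967255 to 1967304) and both copies lie in the exon of AT3G00220. With both arms together its level was 4.17 RPM in DCL4-6:FHA flowers, 18.4 RPM in DCL4-8:FHA flowers, 7.32 RPM in DCL4-6:FHA seedlings and 4.60 RPM in DCL4-8:FHA seedlings. It was 7.17, 3.89, 6.80 and 8.84 times the median bin of its library and held 7.48%, 5.16%, 7.66% and 10.4% of the arm coverage. The bins 101 to 150 nt and 151 to 200 nt from the loop were also among the 5 highest in all 4 libraries. The bin 1 to 50 nt from the loop was among them in 3 libraries, all but DCL4-8:FHA flowers.

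The remaining places among the 5 highest bins differed between libraries, in part between near ties. In the plateau the bin 1701 to 1750 nt from the loop (left arm 1965218 to 1965267, right arm 1968904 to 1968953) was among the 5 highest in DCL4-8:FHA flowers, at 14.8 RPM, and in DCL4-6:FHA seedlings, at 5.03 RPM. DCL4-6:FHA flowers had a bin at 1951 to 2000 nt with 2.47 RPM, a bin that was at 12.9, 3.98 and 1.37 RPM in the other libraries. DCL4-8:FHA flowers had a further one at 2351 to 2400 nt with 12.9 RPM. DCL4-8:FHA seedlings had none of its 5 highest bins in the plateau, and the lowest of the 5 lay 251 to 300 nt from the loop with 1.48 RPM. The highest 6 of 64 bins held 33.4% (30.3 to 36.6) of the arm coverage in DCL4-6:FHA flowers, 24.8% (23.5 to 26.1) in DCL4-8:FHA flowers, 30.5% (28.3 to 32.7) in DCL4-6:FHA seedlings, with 36.7% (33.7 to 39.9) in DCL4-8:FHA seedlings.

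Reads piled up with sharp edges. Where many reads share a start, deposited depth rises at a base and falls by a like amount 50 nt later. Deposited depth appears to place a read of 2 places at each arm. Among the 10 largest rises of each library, position 1966783, the start of the read stack printed above, was shared by all 4. The rise there was 24 reads in DCL4-6:FHA flowers, 64 in DCL4-8:FHA flowers, 22 in DCL4-6:FHA seedlings and 20 in DCL4-8:FHA seedlings, and 50 nt later depth fell by 20, 60, 21 and 19 reads. Positions 1966786, 1966863, 1964976, 1965184, 1967198, 1967260 and 1969145 were each among the 10 largest rises of 3 libraries. Of these, 1966863 and 1967260 are opposite ends of the same stretch on the 2 arms, as are 1964976 and 1969145, so these 4 positions may stand for 2 stacks of reads. Because reads carry no molecular identifiers, a pile of identical reads cannot be told apart from copies of a single molecule made in library preparation.

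Across the 64 bins of the folded arms the libraries had similar profiles. Pearson's r was 0.876 between the lines in flowers and 0.875 between them in seedlings. It was 0.929 between the tissues with DCL4-6:FHA and 0.809 with DCL4-8:FHA, and 0.917 and 0.903 for the remaining pairs. These are descriptions over bins that share base composition and position, with no p-value.

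The longest gap of each library lay in the trough. The share of arm positions without any coverage was 17.0% in DCL4-6:FHA flowers, 3.36% in DCL4-8:FHA flowers, 7.29% in DCL4-6:FHA seedlings, with 12.8% in DCL4-8:FHA seedlings. The order followed the number of IR71 reads, with the fewest gaps in the library with the most reads. The longest gap was 181 nt in DCL4-6:FHA flowers (right arm, 801 to 981 nt from the loop), 39 nt in DCL4-8:FHA flowers (right arm, 942 to 980 nt) and 149 nt in DCL4-6:FHA seedlings (left arm, 1034 to 1182 nt). In DCL4-8:FHA seedlings both arms were empty over the same 210 nt, 1034 to 1243 nt from the loop (1965725 to 1965934 and 1968238 to 1968447). On the arms, 69 of 6491 positions were without coverage in all 4 libraries.

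Because most of the sequence is shared, the arms can be compared only at the bases that differ. At 29 of the 30 substitutions every read of 50 nt over the base has a single place in the genome, and these 29 fall into 19 groups less than 50 nt apart, within which the same reads are counted. A site was read where at least 10 reads covered the 2 arms together. It was called for an arm where the exact binomial interval of the left-arm share lay wholly on one side of 50%. The calls are a description with no correction for the number of sites, and they count sites rather than groups. The depth at the 29 sites was also summed, with a read counted at each site it covers. The left arm then had 49.3% of this sum in DCL4-6:FHA flowers, 49.9% in DCL4-8:FHA flowers, 48.1% in DCL4-6:FHA seedlings and 53.3% in DCL4-8:FHA seedlings. These are not shares of separate reads.

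Some single sites were far from an equal share of the arms, and others could not be told from it. In DCL4-6:FHA flowers 5 of 15 sites were called for the left arm, 4 for the right arm and 6 for neither, and in DCL4-8:FHA flowers the numbers were 10, 8 and 3 of 21. In DCL4-6:FHA seedlings 4 of 22 sites were called for the left arm, 3 for the right arm and 15 for neither, and in DCL4-8:FHA seedlings the numbers were 6, 2 and 8 of 16. With at least 20 reads at a site, DCL4-6:FHA flowers had 2 calls for the left arm and DCL4-8:FHA seedlings 3. Of the 13 sites with at least 10 reads in all 4 libraries, 1 was called for the left arm and 2 for the right arm in all 4. By the larger number alone, with no call, 7 were on the same side in all 4, the left one at 5 and the right one at 2, and some of these sites share reads.

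Next to the loop the reads came from the right arm. At the site 13 nt from the loop, within the first pair of sequences, the left arm had 0 and the right arm 52 reads in DCL4-6:FHA flowers. In DCL4-8:FHA flowers they had 2 and 142, in DCL4-6:FHA seedlings 3 and 79, and in DCL4-8:FHA seedlings 9 and 80. The reads that crossed from the loop into the right arm are among these. At the site 44 nt from the loop the left-arm and right-arm reads were 4 and 27, 38 and 77, 20 and 37, and 31 and 25 in the same order, so the lead of the right arm was smaller there and absent in DCL4-8:FHA seedlings.

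The left arm led at the site 150 nt from the loop, within the read stack printed above. It had 77 reads and the right arm 5 in DCL4-6:FHA flowers. In DCL4-8:FHA flowers they had 211 and 13, in DCL4-6:FHA seedlings 102 and 18, and in DCL4-8:FHA seedlings 81 and 3. The left-arm share was thus 85.0% to 96.4%. Reads that start at 1966783 cover this site, and depth rose there by 24, 64, 22 and 20 reads in the same order. Such a pile cannot be told apart from copies of a single molecule, which the calls and intervals do not take into account. At the site 133 nt from the loop the reads were 23 and 23, 70 and 122, 33 and 45, and 30 and 18, so at a base less than a read's length away no library was called for the left arm and DCL4-8:FHA flowers was called for the right arm.

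Farther out, sites were called for either arm. At the site 272 nt from the loop the left-arm and right-arm reads were 34 and 1, 83 and 14, 26 and 13, and 32 and 7. In the plateau, at 1873 nt, they were 6 and 16, 18 and 81, 28 and 23, and 5 and 8, and only DCL4-8:FHA flowers was called for the right arm. At 2774 nt they were 9 and 2, 34 and 5, 17 and 3, and 4 and 6, and DCL4-8:FHA flowers and DCL4-6:FHA seedlings were called for the left arm. Over the 13 sites, r of the left-arm share between libraries was 0.741 to 0.930, as a description of sites of which some share reads.

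The base that the right arm alone has, 739 nt from the loop, lay within a local rise of coverage in the trough. The depth of the left and right arms there was 0 and 30 reads in DCL4-6:FHA flowers, 6 and 91 in DCL4-8:FHA flowers, 8 and 52 in DCL4-6:FHA seedlings, and 2 and 20 in DCL4-8:FHA seedlings. The left-arm share was 0% (0 to 11.6), 6.19% (2.30 to 13.0), 13.3% (5.94 to 24.6) and 9.09% (1.12 to 29.2). The right arm reached 1.90, 8.08, 2.92 and 0.919 RPM there. How the aligner treated a read with 1 base more or less than the genome was not tested.

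**Figure D4:**
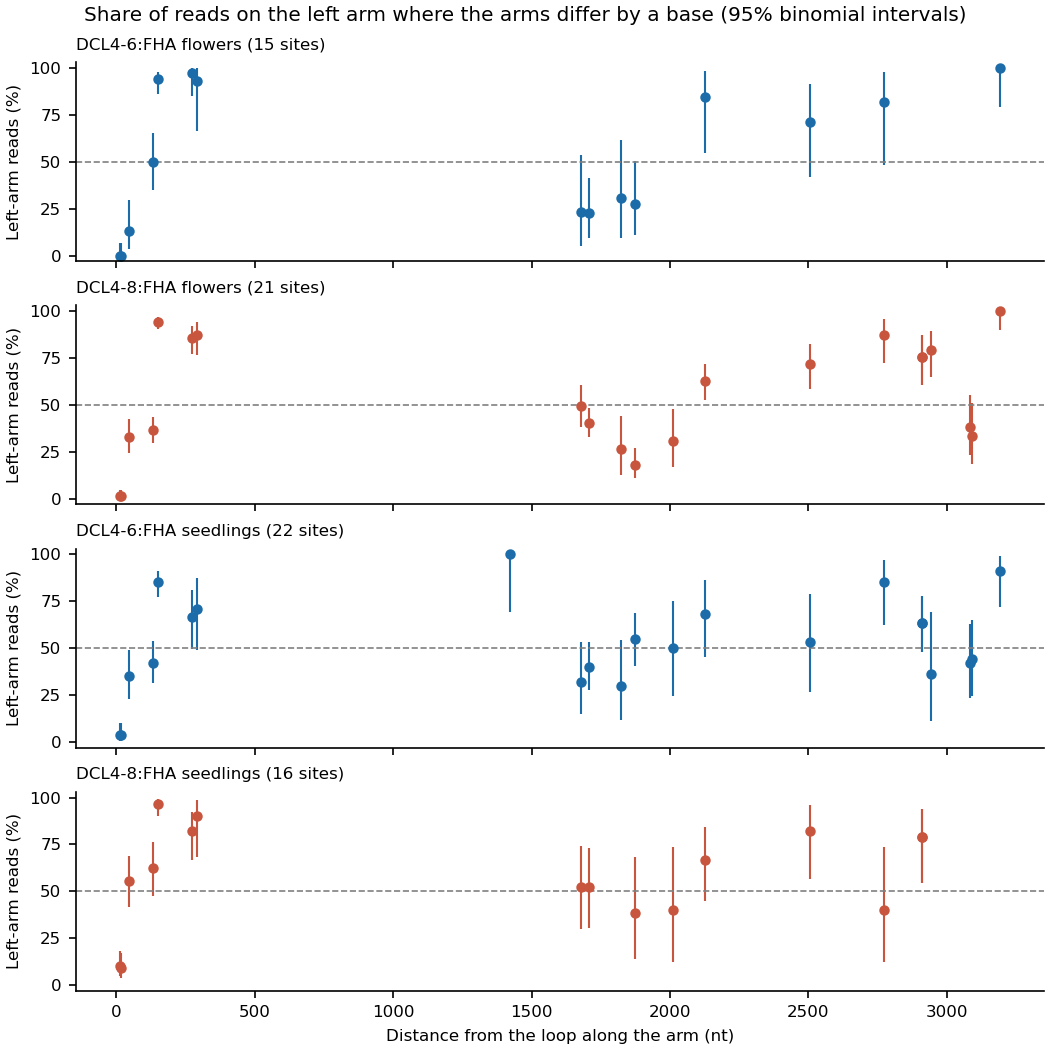
Share of reads on the left arm (%, vertical axis) at each base that differs between the arms and had at least 10 reads, by distance from the loop (nt, horizontal axis), in the 4 tagged libraries, with exact 95% binomial intervals as bars and a dashed line at 50%. The lowest shares lay 13 to 15 nt from the loop and shares of 85.0% to 96.4% at 150 nt.

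The comparison of the 2 forms of DCL4 asks whether they held the same parts of the hairpin to the same extent. In flowers DCL4-8:FHA was above DCL4-6:FHA along the whole arm. The ratio was 6.38 (5.93 to 6.87) over the arms, and from segment 1 to segment 10 it was 4.27, 7.91, 5.76, 5.61, 5.38, 6.31, 8.02, 9.93, 9.28 and 7.36. For counts of bins, the locus was left unfolded, with 140 bins of 50 nt for IR71. Reads that match both arms can then enter a bin on each arm, so partner bins are not separate observations. Among bins with at least 20 reads in the 2 libraries together, 82 of 82 bins of IR71 were over 2-fold higher with DCL4-8:FHA. Of the bins of all loci, IR71 included, 152 of 157 (96.8%) were so. That count therefore does not set IR71 apart, and none of its bins was over 2-fold lower, where 1.27% of all bins were. A bin can reach 20 reads through the higher library alone, so here and below the filter favours bins that follow that library.

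In seedlings DCL4-8:FHA was below DCL4-6:FHA. The ratio over the arms was 0.463 (0.427 to 0.501), and from segment 1 to segment 10 it was 0.696, 0.971, 0.318, 0.364, 0.309, 0.291, 0.463, 0.481, 0.407 and 0.368. The ratio was nearest to 1 in segments 1 and 2, and that of segment 2 could not be told from 1 (0.589 to 1.62). At the last 18 nt of the loop the ratio was 0.993 (0.472 to 2.02) in seedlings, whereas in flowers it was 4.44 (1.71 to 13.6). These 18 nt were set by the coverage of DCL4-6:FHA flowers. Both intervals take coverage divided by the read length as reads, 5.96 to 19.3 per library, fewer than crossed the stretch. They are therefore not the counting error of the crossing reads. Of 67 bins of IR71, 46 were over 2-fold lower with DCL4-8:FHA (68.7%). Of the 132 bins of all loci, IR71 included, 46 were lower (34.8%), so those of IR71 were all the lower bins there were. None of the 67 was over 2-fold higher, whereas 60 of the 132 (45.5%) were, all of them in other loci.

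The comparison of the tissues asks where along the hairpin recovery was higher in flowers or in seedlings. With DCL4-6:FHA flowers were below seedlings, at 0.583 (0.538 to 0.633) over the arms and between 0.366 and 0.746 over the segments. Of 67 bins of IR71, 24 were over 2-fold lower in flowers (35.8%) and 0 were higher. Of the 98 bins of all loci, IR71 included, 25 were lower (25.5%) and 15 were higher (15.3%). IR71 thus gave most of the bins compared and 24 of the 25 lower ones, and all 15 higher bins lay in other loci. With DCL4-8:FHA flowers were 8.04-fold (7.49 to 8.63) above seedlings over the arms. That ratio was 4.58 and 2.98 in segments 1 and 2 and between 8.37 and 13.3 in the other 8, with the highest value in segment 8. Of 85 bins of IR71, 84 were over 2-fold higher (98.8%) and 0 were lower. Of the 163 bins of all loci, IR71 included, 130 were higher (79.8%) and 3 were lower (1.84%). The 84 bins of IR71 are among those 130, and all 3 lower bins lay in other loci. Here too a bin could pass the filter through the flower library alone.

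The range over the 4 libraries was narrowest next to the loop. The highest library was 4.58 times the lowest in segment 1 and 13.3 times the lowest in segment 8. Each contrast sets 1 library against another.

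**Figure D5:**
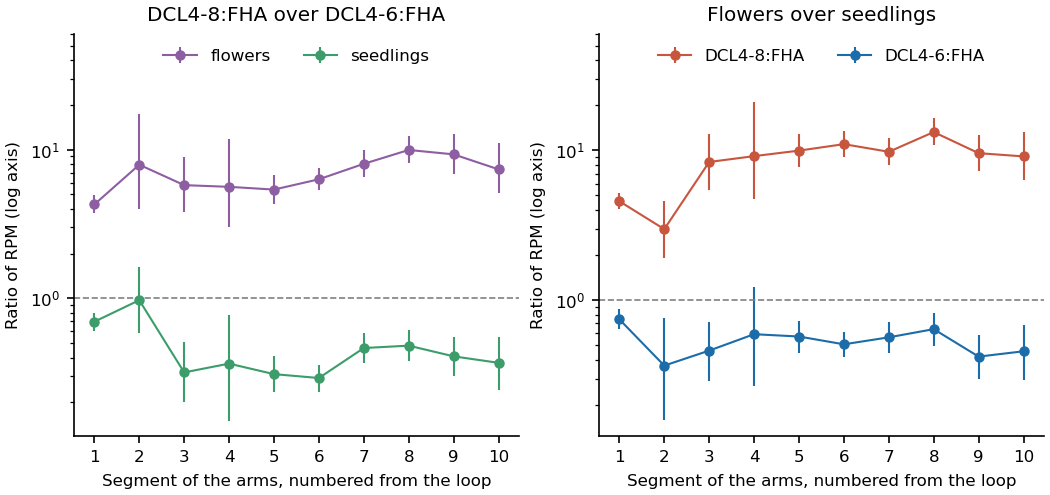
Ratio of RPM (log axis) in each of 10 equal segments of the arms, numbered from the loop (horizontal axis), for DCL4-8:FHA over DCL4-6:FHA in each tissue and for flowers over seedlings with each form, with 95% intervals from read numbers as bars and a dashed line at a ratio of 1. The ratio of the forms lay between 4.27 and 9.93 in flowers and between 0.291 and 0.971 in seedlings.

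Levels over the annotated genes are given with the part of each gene that lies in the locus. AT3G00220, which spans the loop and the arm bases around it, was at 0.850, 3.70, 1.18 and 0.855 RPM in DCL4-6:FHA flowers, DCL4-8:FHA flowers, DCL4-6:FHA seedlings and DCL4-8:FHA seedlings. AT3G06435, over the trough's end, the plateau, the outer arm and the nearly empty right flank, was at 0.386, 2.87, 0.708 and 0.256 RPM. AT3G01835 was at 0.610, 2.54, 0.694 and 0.534 RPM and AT3G01845 at 0.300, 1.56, 0.512 and 0.237 RPM. The part of AT3G06436 within the locus, which reaches into the right flank, was at 0.0368, 0.240, 0.0644 and 0.0482 RPM. Reads that match both arms are shared between these genes and the unannotated left arm, so the values are not levels of single transcripts.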

How the data were processed

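The authors deposited coverage at each position as signal scaled to library size (RPM), without strand and with 1 library per column. Per the submitters' processing notes, which list bedtools 2.25.0 and HISAT2 2.0.5 without their roles, the genome build was TAIR10. The treatment of reads with several places was not given in the sources used here. The smallest value above 0 of each library, over all loci, was taken as 1 read. Each value of a library then corresponds to a whole number of reads (within 1.08e-08), which gave totals of 1961876 (WT seedlings) to 21771069 reads (DCL4-8:FHA seedlings). A library without any base at a depth of 1 read would have a higher total. The floor of the WT seedling library rests on this reading. The seedling tables are named as seeds in the files and seedlings in the labels, whose name is used here.

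Arms were found with blastn 2.17.0 on the locus aligned with itself (TAIR10.1), and every stretch of 50 nt was searched in the genome on both strands. To count a read once, coverage at a base was divided by the number of places, averaged over the stretches that hold the base. This was tried on simulated reads with evenly spread starts within the arms, none of them in the loop. Shared reads were laid at both arms there by design. The simulation therefore could not check how the deposited reads were placed, or the division where many reads share a start. Positions were counted from 1, because deposited coverage was then equal at 45.6% to 79.5% of 1127 pairs of matching arm bases, against 26.4% to 60.3% counted from 0. Levels carry exact Poisson intervals, ratios exact conditional intervals and shares exact Clopper-Pearson intervals, all at 95% and for counting error only, since reads had no molecular identifiers. For levels and ratios the read number is coverage divided by the read length. In a short stretch this is below the number of reads that cross it. With 1 library per group no test was run. The places named with values are the 5 regions, 10 equal segments of the arms, the 5 highest bins of 50 nt per library, the longest gaps and the overlapping genes; sites that differ between the arms and sharp rises were added. The locus and these lists were chosen with earlier results of these data known. Calculations used Python 3.11.15 with numpy 2.4.6, scipy 1.17.1, pandas 2.3.3 and Biopython 1.88, and matplotlib 3.10.9 for the plots. Alternatives were deposited coverage, medians, unique positions, edges left out, other bins, scales and minimums, and positions counted from 0.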

Additional observations from a re-analysis of the deposited data

Results flagged for a closer look

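The ratio of DCL4-8:FHA to DCL4-6:FHA over the arms of IR71 went in opposite directions in the tissues, 6.38 in flowers and 0.463 in seedlings. It was above 1 in 10 of 10 segments of the arms in flowers and below 1 in 10 of 10 segments in seedlings, where segment 2, at 0.971 (0.589 to 1.62), could not be told from 1. The difference between the tissues was not tested, since each ratio sets 1 library against another.

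With the arms cut into 3 equal parts, the weight of the part nearest the loop against the part farthest from it also moved in opposite directions between the forms. DCL4-8:FHA had 0.476 times the near-to-far ratio of DCL4-6:FHA in flowers and 1.48 times that ratio in seedlings. The difference was not tested.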

How the results depend on the processing

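No paired analysis was possible because each group has 1 library and no result comes from a test; for the same reason no replicate could be left out. Of 128 alternative values for 38 results, 78 stayed near the reported value, 41 moved away and 9 turned round, and counting positions from 0 moved none of 30. Near meant inside the 95% interval of the reported value or, for counts of sites, within a fixed factor. The interval of the gaps takes positions as independent, which they are not. Neighbouring bins behind r can share reads, so they are not independent either. Values are given in the order DCL4-6:FHA flowers, DCL4-8:FHA flowers, DCL4-6:FHA seedlings and DCL4-8:FHA seedlings where 4 stand together. The level of the arms was 0.667, 4.40, 1.16 and 0.526 RPM with deposited coverage, which appears to count a shared read at each arm. By the median over positions it was 0.244, 1.87, 0.469 and 0.207 RPM. The ratio of loop to arms was 0, 0.00902, 0.0498 and 0.198 with 50 positions left out at each edge, and with deposited coverage 0.0938 in DCL4-8:FHA flowers and 0.537 in DCL4-8:FHA seedlings.

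The near-to-far ratio of the arms was the least stable value. It was 1.23, 0.570, 0.988 and 1.45 with deposited coverage, which turned DCL4-6:FHA seedlings to below 1. With the arms cut at the middle it was 0.961, 0.574, 0.779 and 1.12, which turned both DCL4-6:FHA libraries. By the median it was 0.240, 0.164, 0.316 and 0.556, and without segment 1 it was 0.298, 0.187, 0.361 and 0.403, which put all 4 libraries below 1. Arm positions with under 2 reads made up 31.0%, 7.39%, 14.0% and 20.5%. With bins of 25 nt the highest bins (10% of them) held 27.6% in DCL4-8:FHA flowers and 34.1% in DCL4-6:FHA seedlings. With at least 20 reads at a site, an alternative added after the data were seen, 2 sites in DCL4-6:FHA flowers and 3 in DCL4-8:FHA seedlings were called for the left arm.

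At positions with unique stretches DCL4-8:FHA over DCL4-6:FHA was 5.04 in flowers and 0.541 in seedlings, and flowers over seedlings was 0.650 with DCL4-6:FHA and 6.07 with DCL4-8:FHA. By the median over positions the ratio of the forms in flowers was 7.66, and that of the tissues was 0.520 with DCL4-6:FHA and 9.03 with DCL4-8:FHA. On the log2(RPM + 0.01) scale r was 0.836 between the tissues with DCL4-6:FHA, 0.885 with DCL4-8:FHA, 0.928 between the forms in seedlings and 0.793 between DCL4-6:FHA flowers and DCL4-8:FHA seedlings. On the log2(RPM + 0.1) scale r was 0.898 between the tissues with DCL4-8:FHA. The cause of these shifts was not tested. Depth limits the loop, the trough and the sites that differ between the arms, where single libraries held few reads.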

Other observations

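Each arm holds a short tandem repeat in the trough. In the left arm copies of 64 nt at 1966446 to 1966509 and 1966506 to 1966569 overlap by their ends and are identical, and in the right arm the copies at 1967603 to 1967666 and 1967663 to 1967726 are 98.4% identical. Deposited coverage over the left pair was 0.0879 RPM in DCL4-6:FHA flowers, 0.826 RPM in DCL4-8:FHA flowers, 0.248 RPM in DCL4-6:FHA seedlings and 0.349 RPM in DCL4-8:FHA seedlings. Over the right pair it was 0.138, 0.722, 0.315 and 0.274 RPM in the same order. Both pairs lay below the deposited arm mean in all 4 libraries, although a read of the repeat can be placed at more than 2 positions.

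Successive rises of depth showed no excess at the spacing of 21 nt, the length of the small RNAs that DCL4 makes. The autocorrelation of rises at 21 nt was 0.00362, 0.0190, 0.00764 and 0.0277, below the middle of the range over the other spacings from 15 to 30 nt in each library. Those ranges were 0.0115 to 0.0316, 0.0154 to 0.0566, -0.00339 to 0.0550 and 0.0102 to 0.0714. The reads are sequenced to 50 nt, so their starts need not mark the ends of small RNAs. These values therefore cannot show whether DCL4 cut at that spacing, and they are descriptions with no test.

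Coverage of the 64 bins of the folded arms had an r of 0.238 to 0.279 with their GC content, which ran from 14% to 46%. This is a description over bins of the same libraries and its part in the profile was not tested.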
